A study of Sus scrofa with 23 samples.

Results

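Leukocyte adhesion molecules are the proteins by which white blood cells and the vessel lining hold on to each other. Of 9 such genes looked for by name, 8 were found among the 35228 gene names of the deposited tables, each under 1 name: the selectins SELE and SELP, the selectin ligand SELPLG, the endothelial ligands ICAM-1 and VCAM1, and the integrin chains ITGB2, ITGAL and ITGAM. No row bears the name ITGAX. All 8 genes had an adjusted p in all 6 comparisons. RNA had been measured in coronary artery pieces of 3 mm from Yorkshire pigs, a farm breed, and all groups shared a raised blood cholesterol. Segments without diabetes were graded by histopathology as mild (4 libraries), moderate (4) or severe (5) atherosclerosis, and segments of diabetic animals as moderate (6) or severe (4). There was no mild diabetic group, and the labels state neither the ages nor how the animals were made diabetic.

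Leukocytes leave the blood in steps. Selectins on the endothelium catch the ligand SELPLG on passing cells and slow them to a roll, and integrins on the leukocyte then bind ICAM-1 and VCAM1 and stop the cell. ITGB2 is the shared beta chain of the leukocyte integrins. It pairs with ITGAL on most leukocytes and with ITGAM or ITGAX mainly on myeloid cells, and all of these pairs can bind ICAM-1, while VCAM1 is bound by an integrin that contains ITGA4. SELE and VCAM1 are made when cytokines stimulate the endothelium, ICAM-1 is raised from a basal level, and SELP is stored ready-made in endothelial cells and platelets. In atherosclerosis this pathway is known for bringing monocytes into the artery wall.

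In the reference gene table of the build Sscrofa11.1, SELE lies on chromosome 4 at 81289061-81299657 and SELP at 81376804-81401240, with 77.1 kb between them. VCAM1 lies on the same chromosome at 117496914-117511211. The integrin alpha chains share chromosome 3, ITGAM at 17216719-17272134 and ITGAL at 17817785-17858057, with 545.65 kb between them. ICAM-1, listed there as ICAM1, lies on chromosome 2 at 69097136-69107722, ITGB2 on chromosome 13 at 207514281-207544108 and SELPLG on chromosome 14 at 42158694-42178044. An annotated non-coding RNA, LOC110259903, overlaps ITGAM and an annotated pseudogene overlaps ITGB2. Neither has a row in the deposited tables, and the counting is not stated to use strand, so reads from an overlapping transcript cannot be told apart from those of ITGAM or ITGB2.

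The files used here give each gene's mean over a group and no value per library, so levels are the authors' mean normalized counts. Intervals are 95% intervals from the standard errors of the authors' fit, and a gene is called, higher or lower, where its adjusted p was under 0.05. Which animal a segment came from is not in the labels, so p-values measure the spread between segments and are too small where 1 animal gave several of a group. Replicate 5 of the severe segments without diabetes is so named in its title, while its characteristics give moderate atherosclerosis and diabetes. The title was followed and the library could not be left out, so its part in every value of the severe non-diabetic group, the severe diabetes contrast included, was not tested. The spread between libraries of 1 group that the fit implies was 42.1% of the mean for SELE and 39.7% for VCAM1, and from 20.6% (ITGAM) to 26.5% (ICAM-1) for the other 6 genes. Its median was 19.6% over the 12194 genes whose mean reached 50 in each group. In whole segments, fewer cells of a type and less RNA per cell cannot be told apart. The 7 smooth muscle markers made up 1.03% of all normalized counts in mild and 0.750% to 0.881% in the other segments, with 0 higher and 2 lower in severe against mild segments and 0 higher and 1 lower with diabetes at each grade. The 10 heart muscle markers made up 1.27% in mild, 0.325% to 0.351% in other non-diabetic and 0.0252% to 0.0367% in diabetic segments. Of the 8 with an adjusted p, 8 and 7 were lower and 0 higher with diabetes in moderate and severe segments. Of all tested genes 7.19% were called higher and 4.80% lower in severe against mild segments. With diabetes these shares were 8.20% and 8.46% in moderate and 5.75% and 4.92% in severe segments. The part of these muscle differences in the values below was not tested.

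**Figure D1:**
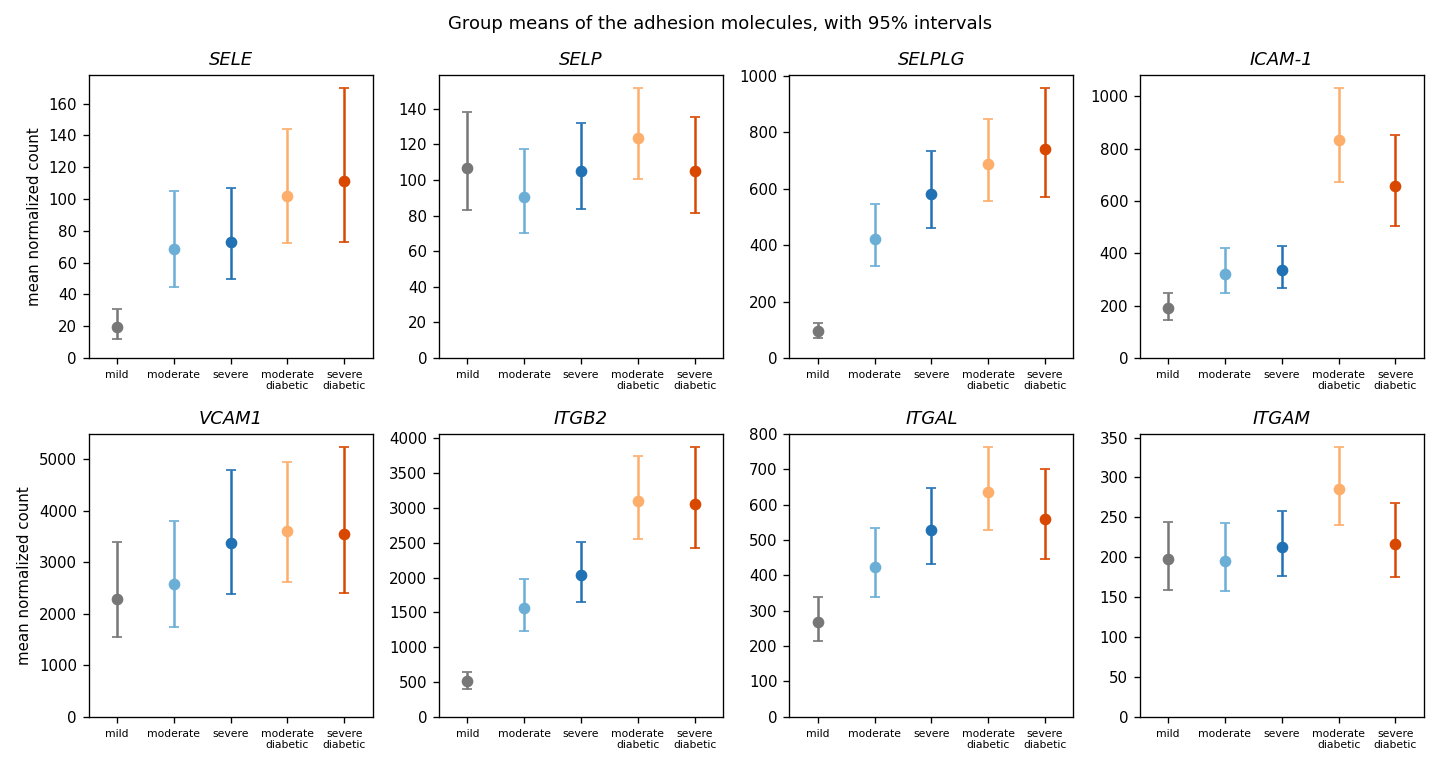
Authors' mean normalized count (vertical axis, linear, from 0) of 8 adhesion genes in 5 groups of 4 to 6 coronary segments, with 95% intervals from the fit's standard errors. SELE, SELPLG and ITGB2 are lowest in mild segments, ICAM-1 stands highest in both diabetic groups, and the intervals of SELP and VCAM1 overlap between all 5 groups.

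The first question was which of these transcripts differ between mild segments and more advanced lesions without diabetes. SELPLG, ITGB2 and SELE were higher in moderate than in mild segments, SELPLG the most, at 4.42-fold. In severe segments ICAM-1 and ITGAL were higher too, while SELP, VCAM1 and ITGAM were called in neither comparison. Of the 8 genes 3 were called higher and 0 lower in moderate against mild segments, where 3.56% of 18561 tested genes were called higher and 1.08% lower. In severe against mild segments 5 were called higher and 0 lower, where 7.19% of 20294 tested genes were called higher and 4.80% lower. The median log2 fold change of the 8 genes was 0.71 and 0.90, against 0.0050 and -0.031 over all genes tested. Both comparisons use the same mild libraries.

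SELE encodes E-selectin, which only stimulated endothelium displays. Its mean normalized count was 19.3 in mild, 68.4 in moderate and 72.8 in severe segments, with intervals of 12.04 to 30.9, 44.5 to 105 and 49.6 to 107. The mild interval lay below both others, and moderate and severe segments were nearly level. In the authors' deposited tables SELE was higher by log2 1.82 ± 0.47 (SE) in moderate segments (adjusted p = 0.00494) and by 1.92 ± 0.45 in severe segments (adjusted p = 0.000464). With a t reference in place of the normal one, the moderate call was lost (adjusted p = 0.0512, in a range of 0.00479 to 0.0512 over the alternatives).

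SELP, P-selectin, showed no such step. Its mean was 107 in mild, 90.6 in moderate and 105 in severe segments, and the log2 fold changes in the authors' deposited tables were -0.23 ± 0.27 (adjusted p = 0.781) and -0.03 ± 0.25 (adjusted p = 0.962). For severe over mild segments the 95% interval of the ratio ran from 0.695 to 1.38.

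SELPLG, the ligand of these selectins on leukocytes, had the largest change among the 8 genes. Its mean was 95.5 in mild, 421 in moderate and 581 in severe segments, and the mild interval of 72.6 to 126 lay far below the others, which start at 325. In the authors' deposited tables the log2 fold change was 2.14 ± 0.28 in moderate segments (adjusted p = 9.69e-12) and 2.61 ± 0.26 in severe segments (adjusted p = 4.64e-20), the latter a 6.10-fold difference.

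ICAM-1 and VCAM1, the endothelial ligands of the integrins, moved less. ICAM-1 had means of 189 in mild, 322 in moderate and 337 in severe segments. The log2 fold change of ICAM-1 in the authors' deposited tables was 0.77 ± 0.28 in moderate segments (p = 0.00592, adjusted p = 0.0949) and 0.83 ± 0.26 in severe segments (adjusted p = 0.0195), and a t reference ended the severe call (adjusted p = 0.0664, in a range of 0.0153 to 0.0664 over the alternatives). VCAM1 had means of 2291, 2573 and 3376. Its log2 fold change in the authors' deposited tables was 0.17 ± 0.41 (adjusted p = 0.914) in moderate and 0.56 ± 0.38 (adjusted p = 0.395) in severe segments. The interval of severe over mild for VCAM1, from 0.874-fold to 2.49-fold, is wide enough to hold both no difference and the 1.78-fold difference of ICAM-1.

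The integrin chains did not share 1 pattern. ITGB2, the common beta chain, had means of 510 in mild, 1565 in moderate and 2040 in severe segments. In the authors' deposited tables it was higher by log2 1.62 ± 0.25 in moderate segments (adjusted p = 1.71e-08) and 2.0 ± 0.23 in severe segments (adjusted p = 4.43e-15). ITGAL, an alpha chain that lymphocytes and monocytes carry, had means of 269, 424 and 529. Its log2 fold change in the authors' deposited tables was 0.65 ± 0.24 in moderate (p = 0.00596, adjusted p = 0.0952) and 0.98 ± 0.23 in severe segments (adjusted p = 0.000427). ITGAM, the alpha chain of neutrophils and monocytes, had means of 197, 196 and 213, and the authors' deposited tables give log2 -0.02 ± 0.22 (adjusted p = 0.988) and 0.11 ± 0.21 (adjusted p = 0.814). In severe against mild segments the 95% intervals of the log2 fold change were 1.54 to 2.46 for ITGB2, 0.53 to 1.42 for ITGAL and -0.30 to 0.52 for ITGAM. The difference between genes measured in the same libraries was not tested.

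The row LOC100738907 carries the gene ID that the reference gene table gives as ITGAX, on chromosome 3 at 17178725-17201388, but with the biotype of a non-coding RNA. It was found by ID after the name ITGAX was seen to be absent, and it is not counted among the 8 genes. Its mean was 5.16 in mild, 18.04 in moderate and 31.0 in severe segments, low enough that a few reads bear on each value. In the authors' deposited tables LOC100738907 was higher by log2 1.86 ± 0.47 in moderate (adjusted p = 0.00324) and 2.67 ± 0.44 in severe segments (adjusted p = 8.25e-08).

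The direct comparison of severe with moderate segments called none of the 8 genes, with or without diabetes. DESeq2 called 0.0203% of 19716 tested genes without diabetes and 0.00332% of 30151 with diabetes, in either direction. Of the 8 genes 0 had an unadjusted p under 0.05 in either comparison. The largest log2 fold changes of the 8 in the authors' deposited tables were 0.47 ± 0.26 for SELPLG without diabetes (p = 0.0687) and -0.39 ± 0.20 for ITGAM with diabetes (p = 0.0501). LOC100738907 stood at 0.81 ± 0.34 without diabetes, with an unadjusted p of 0.0160, in the authors' deposited table. Averaged over both diabetes states, severe over moderate segments had intervals from 0.958-fold to 1.55-fold for SELPLG and from 0.711-fold to 1.16-fold for ICAM-1.

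**Figure D2:**
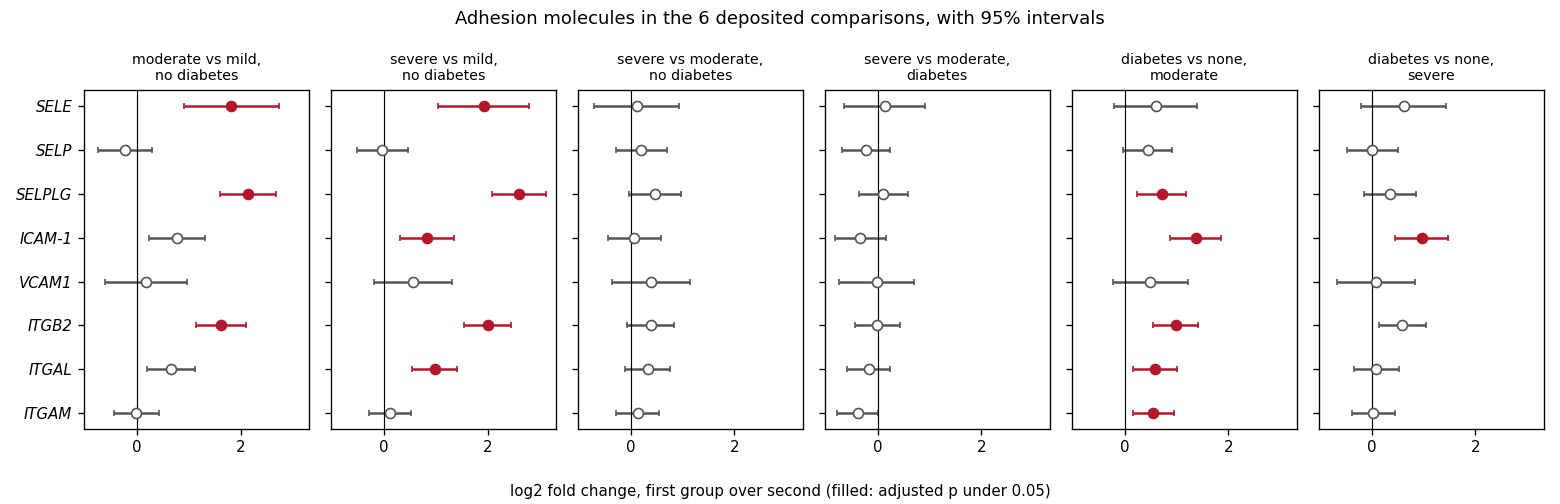
Log2 fold change (horizontal axis) of 8 adhesion genes in the 6 deposited comparisons, 1 panel each, with 95% intervals and filled points where the adjusted p was under 0.05. Filled points stand at 3 and 5 genes against mild segments, at 0 between severe and moderate segments, and at 5 and 1 genes for diabetes in moderate and severe segments.

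The second question was whether diabetes goes with other levels at a matched grade. ICAM-1 was the gene called in both grades, 2.58-fold higher with diabetes in moderate and 1.95-fold higher in severe segments. In moderate segments ITGB2, SELPLG, ITGAL and ITGAM were higher too, by 1.46-fold to 1.98-fold. Of the 8 genes 5 were called higher and 0 lower in moderate segments, where 8.20% of 22025 tested genes were called higher and 8.46% lower. In severe segments 1 was called higher and 0 lower, where 5.75% of 20869 tested genes were called higher and 4.92% lower. The median log2 fold change of the 8 genes was 0.59 in moderate and 0.21 in severe segments, against -0.031 and 0.0094 over all genes tested.

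ICAM-1 had a mean of 832 in moderate and 657 in severe diabetic segments, against 322 and 337 without diabetes. Both diabetic intervals, 672 to 1030 and 505 to 853, lay above those of the 3 non-diabetic groups, whose highest bound was 427. In the authors' deposited tables the log2 fold change of ICAM-1 was 1.37 ± 0.25 in moderate (adjusted p = 4.54e-06) and 0.96 ± 0.26 in severe segments (adjusted p = 0.00598). In the order of its levels, moderate and severe segments without diabetes did not differ beyond their spread, nor did severe and moderate segments with diabetes, and the step between these pairs did.

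ITGB2 had a mean of 3094 in moderate and 3063 in severe diabetic segments, nearly level, against 1565 and 2040 without diabetes. The authors' deposited tables give ITGB2 a log2 fold change of 0.98 ± 0.22 in moderate (adjusted p = 0.000320) and 0.59 ± 0.23 in severe segments (p = 0.0115, adjusted p = 0.0833). SELPLG stood at 687 and 738 with diabetes and was higher by log2 0.71 ± 0.25 in moderate segments (adjusted p = 0.0296), with 0.35 ± 0.25 in severe segments (adjusted p = 0.425), in the authors' deposited tables. ITGAL stood at 635 and 560, and the authors' deposited tables give it 0.58 ± 0.22 (adjusted p = 0.0430) and 0.08 ± 0.22 (adjusted p = 0.871). ITGAM stood at 285 and 217, with 0.55 ± 0.20 (adjusted p = 0.0422) and 0.03 ± 0.21 (adjusted p = 0.957, and -0.042 after re-centring) in the authors' deposited tables. The moderate diabetic group held the highest mean of both alpha chains. When the adjustment took in every gene that has a p, the moderate calls of ITGAL and ITGAM were lost (adjusted p = 0.0588 and 0.0576), and a t reference also ended that of SELPLG (adjusted p = 0.0742). Over the alternatives the adjusted p ranged from 0.0366 to 0.0915 for ITGAL, from 0.0359 to 0.117 for ITGAM and from 0.0126 to 0.0742 for SELPLG. The 0.117 of ITGAM and the 0.0126 of SELPLG belong to another contrast, averaged over both grades and described below.

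SELE, SELP and VCAM1 were not called for diabetes at either grade. SELE had means of 102 and 111 in moderate and severe diabetic segments, and log2 fold changes of 0.59 ± 0.41 (adjusted p = 0.357) and 0.61 ± 0.42 (adjusted p = 0.383) in the authors' deposited tables. SELP had means of 123 and 105, and VCAM1 of 3601 and 3544. In the authors' deposited tables SELP had log2 0.44 ± 0.24 (adjusted p = 0.225) and 0.01 ± 0.25 (adjusted p = 0.992, and -0.063 after re-centring), and VCAM1 had 0.49 ± 0.37 (adjusted p = 0.418) and 0.07 ± 0.38 (adjusted p = 0.939). LOC100738907 was higher in moderate segments at 44.0 against 18.04 (log2 1.31 ± 0.32, adjusted p = 0.000945) and not called in severe ones at 41.1 against 31.0 (adjusted p = 0.447) in the authors' deposited tables.

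A gene called at 1 grade and not at the other is not thereby shown to differ between grades, so the diabetes contrast in moderate segments was subtracted from that in severe segments and the difference put to a two-sided Wald test. On DESeq2's estimates this gave 0 of the 8 genes past the threshold, and 0 with an unadjusted p under 0.05, where 0.0114% of 17493 genes passed in either direction. The values were below 0 for 7 of the 8 genes, with SELE at 0.02, and for all 8 after re-centring on the median of well-expressed genes. The lowest were ITGAM at -0.52 ± 0.29 (interval -1.09 to 0.050) and ITGAL at -0.50 ± 0.31 (-1.11 to 0.11), both with an adjusted p of 0.999. For ICAM-1 the difference was -0.41 ± 0.36, with an interval from -1.11 to 0.30. LOC100738907, not counted among the 8, stood lower than any of them at -0.91 ± 0.44 (interval -1.78 to -0.034). Its unadjusted p in this Wald test was 0.0416 and its adjusted p 0.999. These genes share libraries, so their signs are not independent.

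A contrast chosen after these values were seen averaged the diabetes effect over both grades. It called 3 of the 8 genes higher and 0 lower, where 17.1% of 17493 genes were called higher and 15.4% lower. ICAM-1 was 2.24-fold higher (interval 1.76 to 2.87, adjusted p = 6.46e-09), ITGB2 1.72-fold (1.38 to 2.14, adjusted p = 1.66e-05) and SELPLG 1.44-fold (1.13 to 1.83, adjusted p = 0.0126). SELE was at 1.52-fold with an interval of 1.02 to 2.26 and an adjusted p of 0.10. VCAM1 had an interval of 0.843-fold to 1.74-fold and SELP one of 0.920-fold to 1.48-fold. Outside the 8 genes, LOC100738907 was 1.81-fold higher (1.34 to 2.45, adjusted p = 0.000884).

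**Figure D3:**
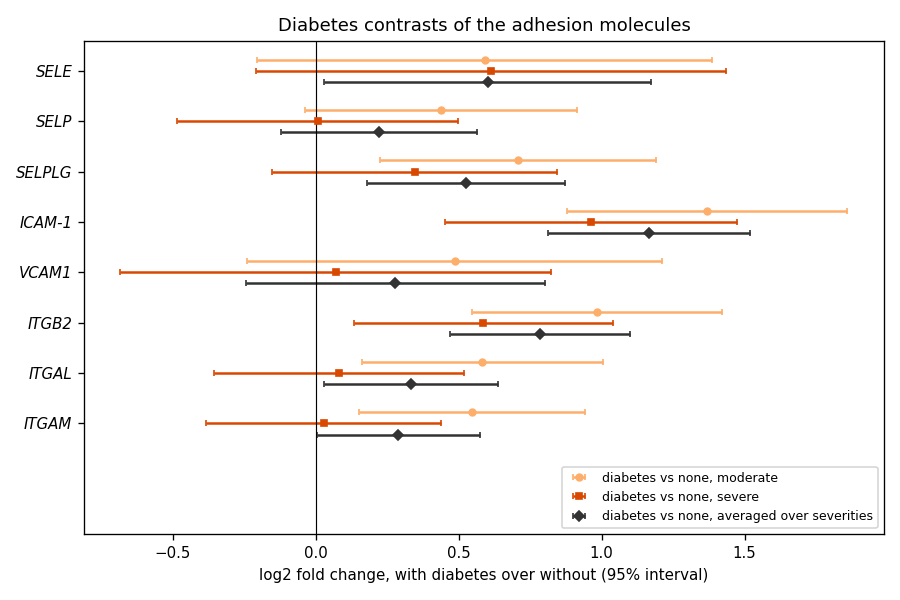
Log2 fold change of diabetic over non-diabetic segments (horizontal axis) for 8 adhesion genes in moderate segments, in severe segments and averaged over both, with 95% intervals. The 3 intervals of ICAM-1 and of ITGB2 lie above 0, those of SELP and VCAM1 include 0, and the severe values of ITGAL and ITGAM lie near 0.

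No deposited table sets diabetic segments against mild ones, so these contrasts were added up from the tables. In them lesion grade and diabetes cannot be told apart. SELPLG was 7.22-fold higher in moderate diabetic than in mild segments (interval 5.11 to 10.2, adjusted p = 8.88e-27) and 7.75-fold higher in severe diabetic segments (5.32 to 11.3, adjusted p = 4.15e-24). ITGB2 was 6.06-fold and 6.0-fold higher, SELE 5.31-fold and 5.80-fold, ICAM-1 4.39-fold and 3.47-fold, and ITGAL 2.36-fold and 2.08-fold, each with an adjusted p of 7.83e-05 or less. ITGAM was 1.45-fold higher in moderate diabetic segments (adjusted p = 0.0231) and stood at 1.1-fold in severe ones (adjusted p = 0.679). VCAM1 stood at 1.57-fold (adjusted p = 0.147) and 1.55-fold (adjusted p = 0.237), and SELP at 1.15-fold and 0.982-fold. In all, 6 of the 8 genes were called higher in moderate diabetic segments, where 20.4% of 17493 genes were called higher and 21.4% lower. In severe diabetic segments 5 were called higher, where 17.4% were called higher and 16.1% lower. None of the 8 was lower in either.

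Genes with a direct part in these steps were taken from lists that were chosen with earlier results of these data known. For all list counts below, the shares of all tested genes called are those given above. They were 3.56% higher and 1.08% lower in moderate and 7.19% and 4.80% in severe against mild segments. With diabetes they were 8.20% and 8.46% in moderate and 5.75% and 4.92% in severe segments. Of 7 other leukocyte integrin chains, 2 were higher and 0 lower in severe against mild segments, and 2 were higher and 1 lower with diabetes at each grade. ITGA4, whose integrin binds VCAM1, had means of 393, 423 and 407 in mild, moderate and severe segments and of 837 and 851 in moderate and severe diabetic segments. The groups without diabetes were level and both diabetic groups were higher, by log2 0.98 ± 0.22 (adjusted p = 0.000195) and 1.06 ± 0.22 (adjusted p = 0.000223) in the authors' deposited tables. ITGA5, a fibronectin receptor chain, was higher with diabetes in moderate segments (0.99 ± 0.13, adjusted p = 2.80e-12), and ITGAE, an alpha chain of T cells in epithelia, was higher in severe than in mild segments (1.19 ± 0.28, adjusted p = 0.000569), in the authors' deposited tables. ITGAE in the authors' deposited table was the 1 chain lower with diabetes in severe segments, at 52.7 against 99.3 (-0.91 ± 0.28, adjusted p = 0.0159).

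Of 18 genes of integrin activation and signalling, 7 were higher and 0 lower in moderate and 11 higher and 1 lower in severe against mild segments. With diabetes 9 were higher and 1 lower in moderate and 5 higher and 1 lower in severe segments. The authors' deposited table of severe against mild segments puts CYTIP, a leukocyte scaffold protein, at log2 2.15 ± 0.26, LCP1, the plastin of leukocytes, at 1.95 ± 0.25 and the exchange factor VAV1 at 1.38 ± 0.20, each with an adjusted p of 5.04e-10 or less.

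Of 14 other endothelial adhesion and passage molecules, 12 to 14 were given an adjusted p by comparison. The calls were 0 higher and 1 lower in moderate and 1 higher and 1 lower in severe against mild segments. With diabetes they were 1 and 1 in moderate and 2 and 1 in severe segments. Counts this small do not set the list apart from the shares of all genes. ICAM-2, a second ligand of ITGAL, had means of 150 in mild, 233 in moderate, 270 in severe, 571 in moderate diabetic and 530 in severe diabetic segments. Like ICAM-1 it stood highest in both diabetic groups, by log2 1.30 ± 0.21 (adjusted p = 8.35e-08) at the moderate grade and 0.97 ± 0.21 (adjusted p = 0.000439) at the severe grade in the authors' deposited tables. PECAM1, a junction protein that leukocytes pass, was lower in moderate than in mild segments (-0.69 ± 0.13, adjusted p = 2.15e-05), and JAM3, another, was lower with diabetes in moderate segments (-0.70 ± 0.13, adjusted p = 2.47e-06) in the authors' deposited tables.

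A list of 11 genes held selectin pathway genes, mainly enzymes that dress selectin ligands, and also the surface proteins CD34, CD44 and PODXL. Of these 1 was higher (CD44) and 0 lower in moderate and 5 higher and 1 lower in severe against mild segments. With diabetes 3 were higher in moderate and 2 in severe segments, and 0 were lower. The galactosyltransferase B4GALT1 (log2 0.60 ± 0.09, adjusted p = 1.75e-08) and the tyrosine sulfotransferase TPST2, of the kind that modifies SELPLG (0.95 ± 0.15, adjusted p = 6.67e-08), were higher in diabetic than in other moderate segments in the authors' deposited tables. CD44, a hyaluronan receptor that can bind E-selectin, was higher in severe than in mild segments (1.14 ± 0.19, adjusted p = 7.27e-08), again from the authors' deposited table.

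A list of 14 genes mixed cytokines and NF-kappa B subunits, which can raise endothelial adhesion molecules, with chemokines and with inhibitors of NF-kappa B. Of these 2 were higher in moderate (CCL2 and NFKBIE) and 1 in severe (NFKBIE) against mild segments, 9 with diabetes in moderate and 4 with diabetes in severe segments, and 0 were lower in any of these. IL8 had means of 8.68, 33.1 and 10.5 in mild, moderate and severe segments and of 348 and 279 in moderate and severe diabetic segments. The monocyte attractant CCL2 had 186, 635 and 340, and 2043 and 2110. In severe segments the authors' deposited table gives log2 4.72 ± 0.75 for IL8 (adjusted p = 2.16e-07) and 2.63 ± 0.41 for CCL2 (adjusted p = 8.49e-08) with diabetes over without. NFKBIE, an inhibitor of NF-kappa B, was higher in severe than in mild segments (0.88 ± 0.20, adjusted p = 0.000267) in the authors' deposited table.

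Markers of blood cells also differed between the groups. The summed mean of 9 pan-leukocyte markers was 3538 in mild, 8041 in moderate and 9286 in severe segments and 14184 and 15619 in moderate and severe diabetic segments, which is 2.27, 2.62, 4.01 and 4.41 times the mild sum. For ITGB2 the same ratios of means were 3.07, 4.0, 6.06 and 6.0, for SELPLG 4.41, 6.08, 7.20 and 7.73, for ITGAL 1.58, 1.97, 2.36 and 2.08, and for ITGAM 0.992, 1.08, 1.44 and 1.1. ITGB2 and SELPLG thus stood above the ratio of the pan-leukocyte sum in every group and ITGAL and ITGAM below it, with no test of these differences. Single markers of the list spread around the sum. In the authors' deposited tables CD48 was at log2 1.95 ± 0.33 in moderate and 2.18 ± 0.31 in severe over mild segments. That is above ITGB2 at 1.62 and 2.0, while PTPRC at 1.35 and 1.55 was below ITGB2. PTPRC, the common leukocyte antigen, was higher in severe than in mild segments (log2 1.55 ± 0.25, adjusted p = 8.25e-08), as were CD48 (2.18 ± 0.31) and LAPTM5 (1.62 ± 0.25), in the authors' deposited table. Of these 9 markers 4 and 7 were higher in moderate and severe against mild segments, and 8 and 4 with diabetes in moderate and severe segments. The part of leukocyte number in the values of ITGB2, SELPLG, ITGAL and ITGAM was not tested.

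Among blood cell types, 10 macrophage markers summed to 12144 in mild, 15328 in moderate and 20849 in severe segments and to 19887 and 21702 in moderate and severe diabetic segments. Of these 2 and 4 were higher and 0 and 1 lower in moderate and severe against mild segments, and 4 and 1 were higher with diabetes at those grades. The authors' deposited tables put the scavenger receptor MSR1 at log2 2.15 ± 0.27 and VSIG4 at 1.61 ± 0.24 in severe over mild segments, with adjusted p of 2.32e-09 or less. CD163 stood at 1.53 ± 0.30 (adjusted p = 2.03e-05) with diabetes at the moderate grade and at 0.48 ± 0.31 (adjusted p = 0.344) at the severe grade in the authors' deposited tables. Its lowest mean, 132, was that of moderate segments without diabetes, against 154 in mild and 240 in severe ones. The 8 neutrophil markers summed to 86.6, 377.1, 338, 910.0 and 777 in the order mild, moderate, severe, moderate diabetic and severe diabetic, with ELANE at 0 in all groups but moderate and MPO at 0 in mild segments. Of the 8, 6 had an adjusted p in the comparisons with mild segments and for diabetes, of which 4 and 2 were higher in moderate and severe against mild segments and 3 and 4 with diabetes at those grades. CSF3R, a growth factor receptor of neutrophils and monocytes, was higher in severe than in mild segments (2.10 ± 0.31, adjusted p = 1.92e-09) in the authors' deposited table. S100A12 and S100A8 ran otherwise, with means of 2.90, 114, 27.2, 266 and 283 and of 1.41, 25.3, 7.18, 77.1 and 71.6 in that order. With diabetes in severe segments the authors' deposited table gives S100A12 3.37 ± 0.60 (adjusted p = 5.71e-06) and S100A8 3.30 ± 0.70 (adjusted p = 0.000236). CSF3R was not called there (0.19 ± 0.30, adjusted p = 0.763). The 11 T and B cell markers were low, summing to 112, 147, 172, 272 and 271 in that order, with the B cell marker MS4A1 at 0 in all groups but severe diabetic. Of 7 or 8 with an adjusted p, 0 and 1 were higher in moderate and severe against mild segments and 2 and 3 with diabetes at those grades. CD3D was higher with diabetes in severe segments (1.70 ± 0.49, adjusted p = 0.0111) in the authors' deposited table, a call lost with a t reference. The 7 dendritic cell markers summed to 196, 379, 332, 697 and 585 in the same order, with CD1A at 0 in mild and moderate segments, and of 6 with an adjusted p 2 were higher in each of moderate and severe against mild segments and 1 with diabetes at each grade.

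The endothelial markers ran another way. The summed mean of 12 endothelial markers was 8403 in mild, 6321 in moderate and 6864 in severe segments. It was 6565 and 6398 in moderate and severe diabetic segments. PECAM1 alone had means of 3922, 2430, 2618, 2488 and 2517 in that order, a large part of each sum. ERG had 383, 478, 549, 540 and 572, so the sum is not the course of every marker. SELE, ICAM-1 and VCAM1 had their lowest means in mild segments, and SELP had its lowest in moderate segments without diabetes. VCAM1 and SELP were called in none of the deposited comparisons. The part of endothelial cell number in the values of SELE, SELP, ICAM-1 and VCAM1 was not tested. Whole segments do not show which cells made ICAM-1 and VCAM1. The part of leukocyte and smooth muscle cell number in their values was not tested either. Of the 12, 0 were higher and 1 lower in moderate and 1 higher and 2 lower in severe against mild segments, and 0 were called for diabetes at either grade. ERG, an endothelial transcription factor, was higher (log2 0.52 ± 0.14, adjusted p = 0.00280) and the nitric oxide synthase NOS3 lower (-0.57 ± 0.20, adjusted p = 0.0399) in severe than in mild segments in the authors' deposited table. The NOS3 call was lost when every gene that has a p was adjusted, with a t reference, after re-centring and at a threshold of 0.01. Platelets also carry SELP: 9 platelet and megakaryocyte markers summed to 600.3, 834, 733, 1112 and 1296 in the order mild, moderate, severe, moderate diabetic and severe diabetic. ITGB3 alone had means of 547, 772, 665, 1039 and 1238 in that order, so the sum mostly follows that gene. Only 4 or 5 of the 9 markers had an adjusted p in these comparisons. Of them only ITGB3, which endothelium and macrophages also make, was called, with diabetes at both grades (0.90 ± 0.17 in severe segments, adjusted p = 1.29e-05, in the authors' deposited table).

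**Figure D4:**
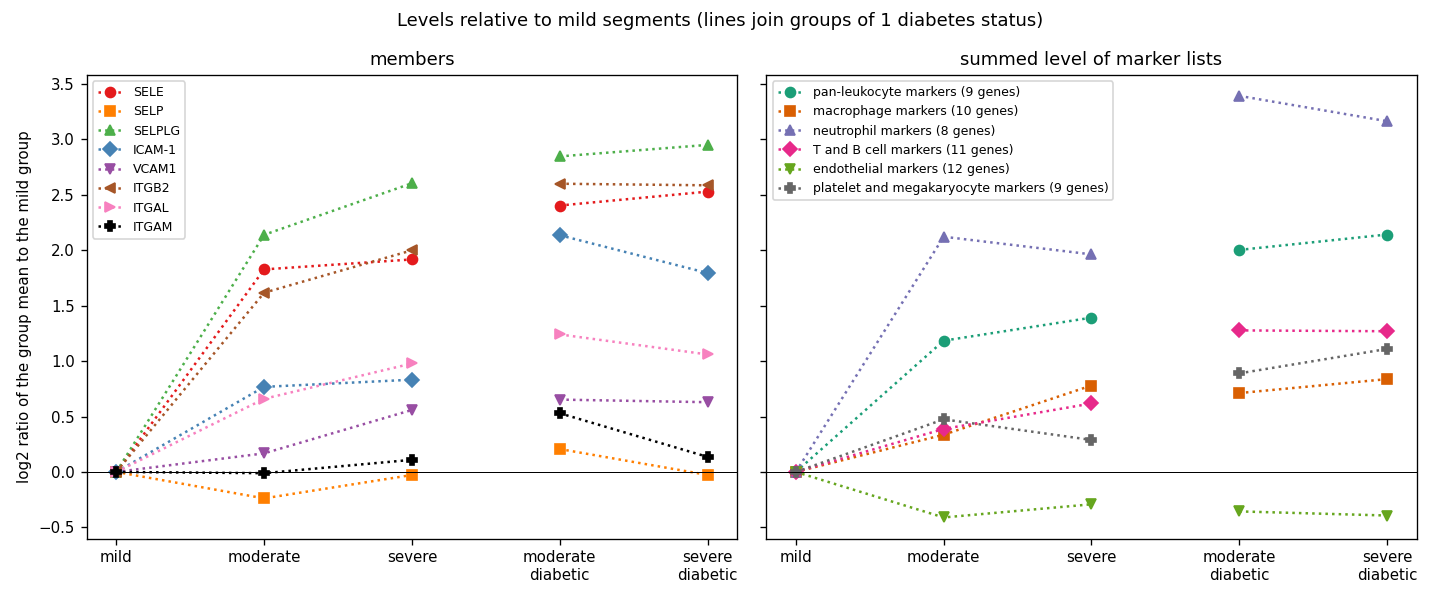
Log2 ratio of each group's mean to the mild group (vertical axis) for 8 adhesion genes (left) and for the summed means of 6 marker lists (right). SELPLG, ITGB2 and SELE lie highest among the genes, SELP and ITGAM lowest, and the endothelial sum lies below 0 in all 4 groups while the neutrophil sum lies highest and the pan-leukocyte sum reaches 4.41 times the mild level.

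The genes whose levels over the 5 groups ran closest to each member were found by the root mean square distance between centred log2 group means, among 8869 named genes with a mean above 50. Closest to SELPLG was CTSD, a lysosomal protease, at a distance of 0.046, followed by AMBN and PDCD1LG2. Closest to ITGB2 was TCIRG1, a proton pump subunit, at 0.061, followed by the cytotoxic granule gene NKG7 and the protease CTSH, and TCIRG1 was also closest to SELE (0.078), before CYTIP and CSTB. Closest to ICAM-1 were the kinases PLK3 (0.074) and SGK1 (0.079), then MS4A7. SGK1 had means of 548, 1042, 1132, 2524 and 2153 in mild, moderate, severe, moderate diabetic and severe diabetic segments. Closest to ITGAL were NFKBID (0.040), SLC36A1 and RNF149, and closest to ITGAM, whose own profile is nearly flat, were UBR4 (0.036), VRK1 and PTPN3. With 5 points a gene, such distances are a description.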

How the data were processed

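Poly-A selected RNA of 23 coronary segments was sequenced, per the labels' protocols. The authors used the build Sscrofa11.1 and DESeq2, per the submitters' processing notes. Aligner, counter, annotation and all versions were not given in the sources used here. Each of 6 deposited tables has 35252 lines, of which 24 hold a date in place of a name and were left out. The authors deposited each group's mean normalized count, a signal that is never negative, a log2 fold change with its standard error, and DESeq2's p-value and adjusted p-value. Genes with no reads, 5042 names, have no fold change. A score deposited in 3 of the tables, the fold change over its standard error with the sign turned, was not used. No value per library was used, so depth per library is not given here and precision is read from the standard errors.

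The members and the 14 gene lists were chosen with earlier results of these data known. The deposited results were taken as they are, as the design foresaw for tables without values per library. Group variances were solved from the standard errors of the 6 comparisons. Contrasts that no table holds were tested with two-sided Wald tests and Benjamini-Hochberg adjustment over the 17493 genes whose mean over groups reached 10, in Python 3.11.15 with scipy 1.17.1. That step was run on simulated counts of independent libraries with a known spread, which does not test an estimated spread or shared animals. List genes were matched by name (132), gene ID (7), synonym (3) or the numbered copy of highest mean (3), and 10 were not matched. All members are named, with up to 3 genes of smallest adjusted p from each list and the 3 nearest profiles of each member called at least once. Not every gene the rule gives is printed. Alternatives were other adjustments, a t reference with 18 degrees of freedom, re-centring, group means plus a pseudocount of 1 and a threshold of 0.01. Contrasts averaged over both grades or both diabetes states, which ask another question, were counted with them. Coordinates are 1-based, from the reference gene table.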

Additional observations from a re-analysis of the deposited data

How the results depend on the processing

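Against mild segments and between severe and moderate segments, the number of the 8 genes called stayed within 1.5 times under every alternative run. For diabetes in moderate segments, the 5 calls became 3 when adjusted over all genes with a p, 3 after re-centring and 3 when averaged over both grades, and 2 with a t reference or at a threshold of 0.01. For diabetes in severe segments the 1 call became 3 when averaged over both grades. Over single genes, 413 of the values kept direction and call, 16 lost a call, 2 gained one and 9 changed sign, none of these 9 being called. After re-centring, diabetes in severe segments gave log2 -0.063 for SELP and -0.042 for ITGAM, and the difference of the diabetes contrasts gave -0.031 for SELE. Averaging severe over moderate segments over diabetes states gave log2 -0.017 for SELP, -0.14 for ICAM-1 and -0.13 for ITGAM, against values above 0 without diabetes. It gave 0.18 for VCAM1, 0.18 for ITGB2, 0.070 for ITGAL and 0.36 for LOC100738907, against values below 0 with diabetes. The cause was not tested. No paired analysis was possible because the tables carry no value per library, and for the same reason no replicate could be left out. No member has numbered copies to sum.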
